A study of Mus musculus with 4 samples.

Results

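The E-protein and Id gene family was examined in the promoter contact map of bone marrow-derived macrophages (BMDMs). Its 6 members are the E-protein genes Tcf3, Tcf4 and Tcf12 and the inhibitor genes Id1, Id2 and Id3, out of 20696 protein-coding genes on the 19 autosomes. A listed interaction was assigned to a member when either of its 5-kb bins held a TSS (transcription start site) of any of that gene's protein-coding transcripts, and 379 of the 237102 listed bin pairs (0.160%) qualified. The members were selected on their numbers of listed interactions in these data, so these numbers and everything read from the same pairs are a description, without a test. BMDMs of C57BL/6J mice, grown for 7 days, were either treated with 20 ng/mL IL-4 (interleukin-4, the cytokine of alternative activation) for 24 h or left untreated (basal), with 2 samples each. H3K4me3 HiChIP, which captures DNA contacts of chromatin carrying a histone mark of active promoters, was performed on all 4 samples. The significant contacts were called on their merged reads, so IL-4-treated and basal macrophages could not be compared, there is no error between replicates, and no depth per sample is known. The list gives for every pair 1 observed count and 1 expected count from the authors' model, and "ratio" below means observed over expected, with an exact 95% Poisson interval that holds the expected count fixed and covers counting error only.

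E-proteins are basic helix-loop-helix transcription factors that dimerize and bind the E-box, a short DNA element. Id proteins carry the helix-loop-helix but lack the basic region, so that a dimer of an Id with an E-protein does not bind DNA. The balance of the E-proteins and their Id antagonists is best known from lymphocyte and dendritic cell development, where Tcf3 (E2A) and Tcf12 (HEB) act in B and T cell precursors and Id2 is needed for innate lymphoid cells and several dendritic cell subsets. Id1, Id2 and Id3 are classic targets of bone morphogenetic protein (BMP) signalling through Smad proteins.

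To show what the contacts joined, sequence is printed for the promoters and partner bins that the Id2, Tcf12 and Id3 results turn on. RefSeq promoter entries (GRCm38.p6, 250 bases before the start site) matched Id2, Id3, Tcf3 and Tcf12, with 6 entries in all. Only the stretch outside annotated exons is printed for a promoter. Each partner is shown as the 120-base window of its 5-kb bin with the most matches to CAGNTG (E-box), GAGGAAGT (a PU.1 consensus) and TGANTCA (AP-1), searched on both strands. Capitals mark these matches and, in the promoters, also GGCGCC (a BMP-Smad element).
Id2 promoter, chr12:25096254-25096342, minus strand: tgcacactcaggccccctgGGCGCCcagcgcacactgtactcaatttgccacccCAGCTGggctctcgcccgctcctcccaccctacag
Id2 partner at 110 kb, chr12:25209349-25209468, plus strand: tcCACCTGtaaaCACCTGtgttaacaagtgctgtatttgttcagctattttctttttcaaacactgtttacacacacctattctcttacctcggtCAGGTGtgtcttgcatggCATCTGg
Id2 partner at 295 kb, chr12:25390071-25390190, plus strand: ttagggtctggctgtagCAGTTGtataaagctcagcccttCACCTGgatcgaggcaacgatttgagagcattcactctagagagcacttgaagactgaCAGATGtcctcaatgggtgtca
Tcf12 promoter, chr9:72111872-72112069, minus strand: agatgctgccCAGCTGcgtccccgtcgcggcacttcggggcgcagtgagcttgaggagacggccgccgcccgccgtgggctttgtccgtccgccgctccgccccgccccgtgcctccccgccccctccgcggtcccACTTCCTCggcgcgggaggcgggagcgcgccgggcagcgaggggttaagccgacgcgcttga
Tcf12 partner at 160 kb, chr9:71950144-71950263, plus strand: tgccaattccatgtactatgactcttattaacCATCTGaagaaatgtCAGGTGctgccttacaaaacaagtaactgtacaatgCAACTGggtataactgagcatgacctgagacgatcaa
Id3 partner at 70 kb, chr4:136073669-136073788, plus strand: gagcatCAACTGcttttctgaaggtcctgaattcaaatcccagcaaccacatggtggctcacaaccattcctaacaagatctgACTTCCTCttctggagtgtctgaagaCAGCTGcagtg

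The Id2 promoter stretch held 1 E-box and 1 GGCGCC, and the Tcf12 stretch held 1 E-box and 1 PU.1 match. The Id2 stretch lies before the RefSeq start site at 25096092. It is inside the annotated gene, downstream of the outermost Id2 TSS at 25097140, so it is not sequence upstream of the whole gene. The entries of Tcf3 and Id3 and the remaining Tcf12 entries held none of these motifs in their 250 bases. Over all 32851 RefSeq promoters, 44.8% held an E-box, 9.59% a GGCGCC and 2.44% a PU.1 match in the 250 bases before the start site. None of the 6 member entries matched TGACGTCA (the cAMP response element, in 1.55% of all promoters) or GCGNGGGCG (an Egr consensus, in 4.70%). The window of the Id2 partner at 110 kb held 4 matches, all of them E-boxes, and 9.38% of the 129565 listed bins had a window with at least as many. The windows of the Id2 partner at 295 kb and the Tcf12 partner at 160 kb held 3 E-boxes each. The Id3 partner window at 70 kb held 2 E-boxes and 1 PU.1 match, and 48.2% of listed bins had a window with 3 matches or more.

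All 6 members had at least 1 listed interaction, against 63.2% of all protein-coding genes. Over all genes the median was 2 interactions, the upper quartile 11 and the 90th percentile 27. Tcf4 with 172 and Id2 with 120 ranked 6th and 33rd of 20696 genes. Tcf12 had 46 (rank 744). Id1, Tcf3 and Id3 had 16, 13 and 12, all above the upper quartile and below the 90th percentile. The E-proteins and the Ids each held 1 gene with over 100 interactions and at least 1 gene with 13 or fewer. A partner at a ratio of at least 10 was found for Id2 and Tcf4 among the members, and for 2.69% of all genes. The plot of ratio against distance shows the contacts of each member around its promoter bins.

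**Figure D1:**
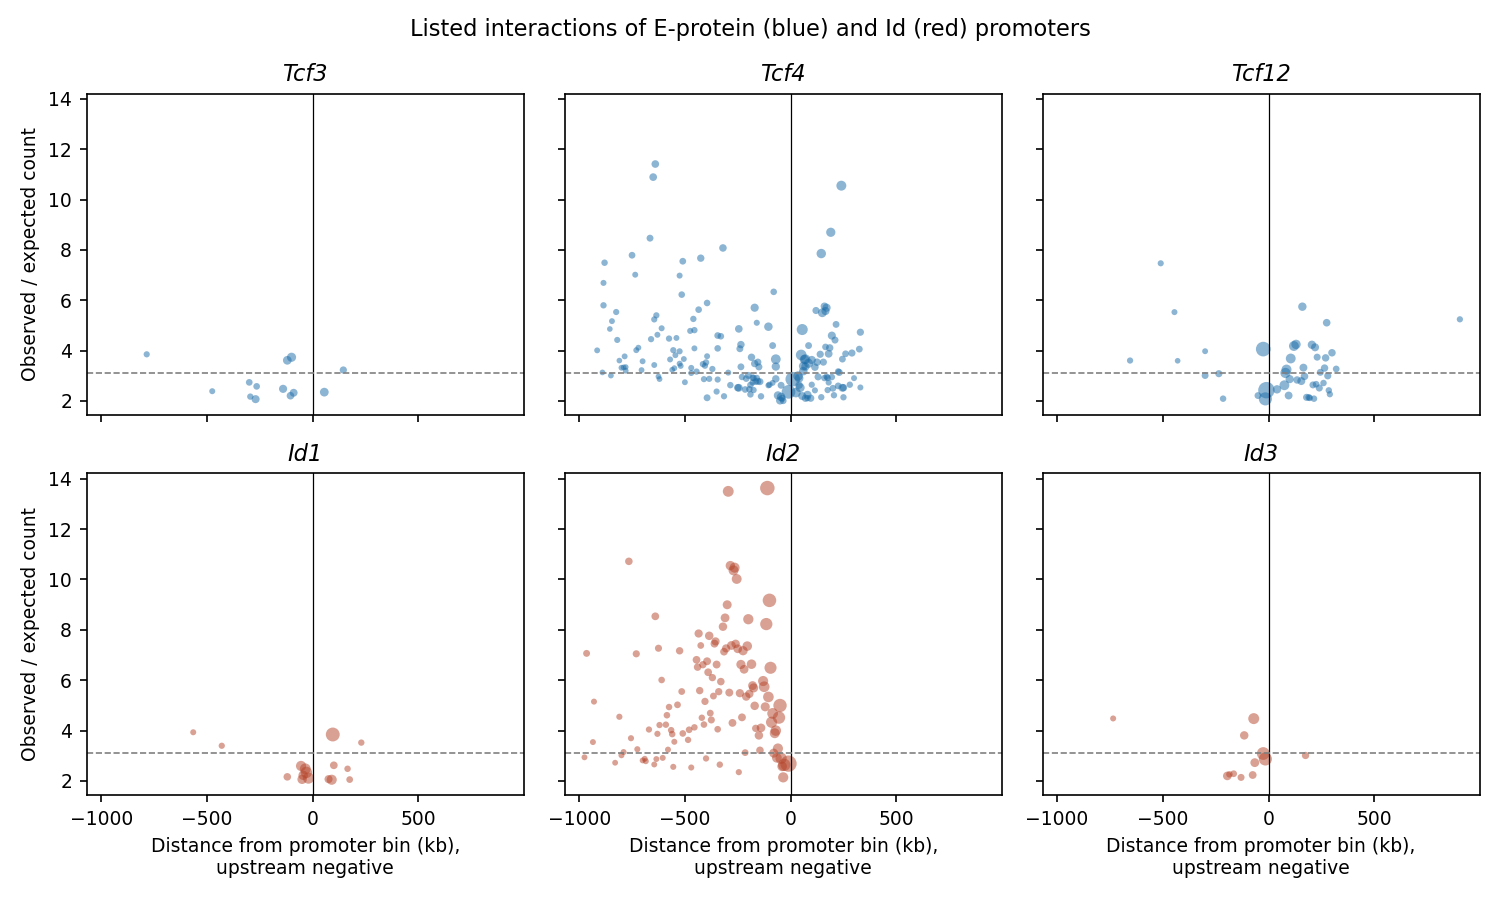
Ratio of observed to expected count (vertical axis) against distance from the promoter bin in kb (horizontal axis, upstream negative) for every listed interaction of the 6 members, with point size rising with the observed count and the dashed line at 3.11, the median ratio of all listed pairs. Contacts between 2 promoter bins of the same gene appear once from each end. All Id2 points lie upstream and reach 13.6, Tcf4 points lie on both sides and reach 11.4, and no Tcf3 or Id1 point reaches 4.

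Among the E-protein genes, Tcf4 had the most interactions over all promoters, but with only the outermost TSS of each gene it had 36 and Tcf12 had 41. It encodes E2-2, which is required for plasmacytoid dendritic cells. The gene lies on the plus strand of chromosome 18 from 69343356 to 69689079 (mm10, counted from 1). Its 24 protein-coding transcripts start at 22 positions in 8 different 5-kb bins, and only 2 autosomal genes, Tcf4 included, had 8 or more promoter bins. The 172 interactions fell into 33 clusters of neighbouring bin pairs and reached 121 partner bins, from 885 kb upstream of the leading promoter bin to the 3′ part of the gene. The median ratio was 3.41 over the Tcf4 pairs and 3.11 over all listed pairs. By distance class it was higher for Tcf4 below 200 kb, as at 100 to 200 kb (3.35 against 2.92). In every class from 200 kb on it was lower, as over 500 kb (4.02 against 4.30). Apart from Tcf4 itself, no protein-coding gene had a TSS in the 1220 kb that the contacts spanned. The nearest others were Mc2r, 915 kb upstream of the first Tcf4 TSS, and Ccdc68, 313.0 kb downstream of the last. Within 500 kb of the Tcf4 start sites there were 2 other protein-coding genes, against a median of 16 around all genes.

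The Tcf4 promoter bins differed strongly in their contacts. The bin at 69345001, with 9 transcript starts, had 96 interactions (55.8% of the gene's total), 55 of them upstream and 41 downstream. It ranked 52nd of 23780 promoter bins. The adjoining bin at 69340001, with 5 transcript starts, had 36, and 25 of its partner bins (69.4%) were also partners of the leading bin. These 2 neighbouring bins together held 132 interactions. Further into the gene, the bins at 69415001, 69500001, 69515001 and 69520001 had 13, 4, 3 and 4 interactions. The bin at 69590001, 250 kb inside the gene, had 28, and the last one at 69610001 had none listed.

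**Figure D2:**
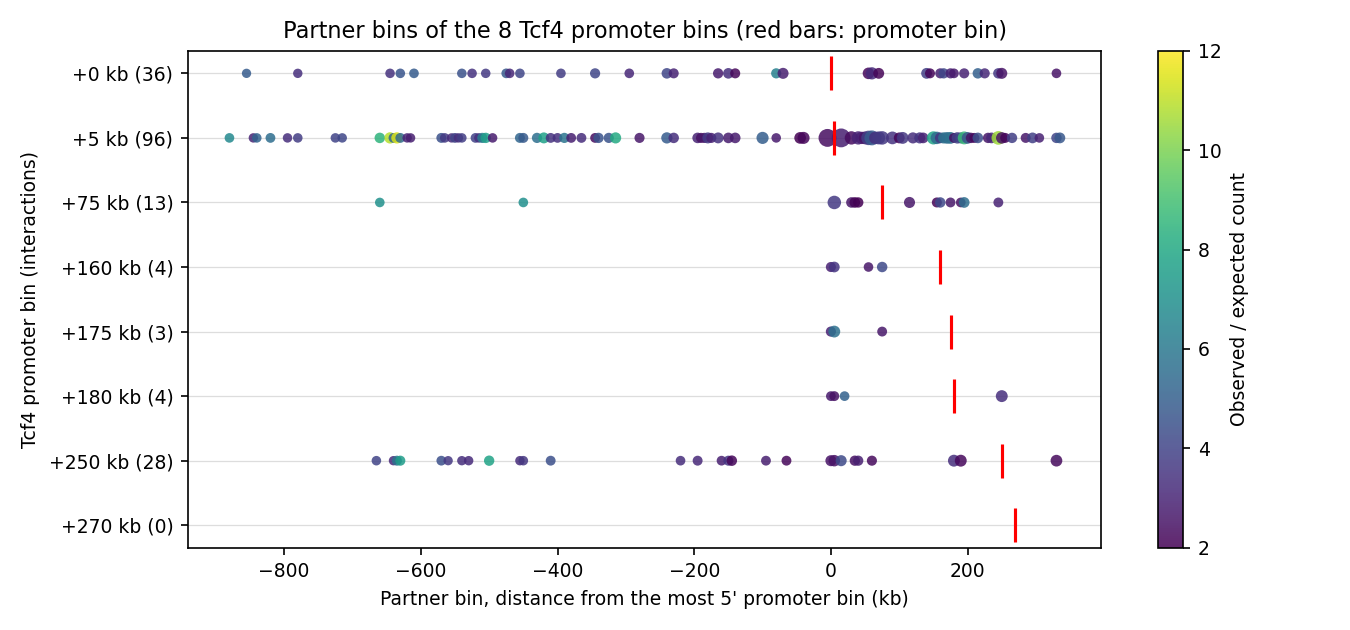
Partner bins of each Tcf4 promoter bin, by distance in kb from the most 5′ promoter bin (horizontal axis), with 1 row per promoter bin labelled by its offset and its number of interactions, colour for the ratio and point size for the observed count. The bin at +5 kb has 96 contacts on both sides, the bin at +250 kb has 28, 19 of them over 300 kb away, and the bins from +160 to +180 kb have 3 or 4 each, all within the gene.

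The strongest Tcf4 contacts by ratio belonged to the leading bin. It was joined to a bin 640 kb upstream with 45 observed against 3.94 expected counts (ratio 11.4, 8.33 to 15.3) and to a bin 650 kb upstream with 46 against 4.23 (ratio 10.9, 7.97 to 14.5). Both lie in an intergenic stretch of 40 kb in which 7 bins were Tcf4 partners. The third was a downstream bin within a Tcf4 intron at 240 kb, with 101 against 9.58 counts (ratio 10.6, 8.59 to 12.8). That intronic bin adjoins the promoter bin at 69590001. By observed count the leading contacts were near ones, 255 counts at 10 kb downstream (ratio 2.86), 223 at 10 kb upstream (ratio 2.36) and 133 at 55 kb downstream (ratio 4.84). The 3 highest counts were thus at distances of at most 55 kb, and the 3 highest ratios at 240 kb or more. Of the 160 Tcf4 interactions that did not join 2 of its own promoter bins, 107 lay upstream and 53 downstream. Intergenic bins received 97, introns 57 and exons 6, and no promoter of another protein-coding gene was a partner. The only noncoding gene with 5 or more partner bins was 4930546C10Rik, with 8.

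The promoter bin at 69590001 reached much of the same upstream territory. Of its 28 interactions, 27 lay upstream and 19 spanned more than 300 kb. Its 28 partner bins and the 96 of the leading bin had 16 in common, which is 57.1% of the first set and 16.7% of the second. At these 16 bins the leading promoter had the higher observed count in 11 and the same count in 1, and the higher ratio in 10. The Poisson intervals of the 2 ratios overlapped in 14 of the 16. In the other 2, at 69400001 and 69530001 inside the gene, the leading promoter had the higher ratio (4.84 against 2.26 and 4.11 against 2.22). At the partner 640 kb upstream of the leading bin, the ratios were 11.4 for the leading bin and 5.80 for the bin at 69590001, with 45 and 20 observed counts. The adjoining bin at 69585001, which holds no Tcf4 TSS, had 29 interactions, 27 of them upstream. Its median ratio was 4.43 against 3.21 for the bin at 69590001, and 16 against 7 pairs had a ratio of at least 4. Upstream contacts were thus not particular to the bin with the TSS.

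The Tcf4 promoters were also listed in contact with each other, in 12 pairs at distances of 70 to 250 kb. The leading bin was a partner of 5 other promoter bins. The highest of these ratios was 5.70 (4.32 to 7.39), with 57 observed counts, to the bin at 69515001. The lowest was 2.43 (1.44 to 3.84), with 18 counts, to its neighbour at 69520001. Each of the 3 bins between 69500001 and 69525000 had just 3 or 4 contacts, and 2 of these went to the 2 bins of the 5′ promoter in every case. Bins that were partners of a Tcf4 promoter were listed in contact with each other in 73 pairs. Of those 73, 18 involved the intronic bin at 69400001 and 14 the intronic bin at 69585001. Id2, described below, had no such pairs. A pair of 2 bins without the H3K4me3 mark could not be listed, so this difference does not show whether such bins touch.

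Tcf12 encodes HEB, an E-protein of thymocytes and muscle, and lies on the minus strand of chromosome 9 from 71842688 to 72111871. Its 46 interactions formed 13 clusters, and 41 of them came from the 5′ promoter bin at 72110001, which has 4 transcript starts. From that bin 35 ran downstream and 6 upstream. The internal promoter bin at 71895001 had 6, all upstream, including 1 to the 5′ promoter 215 kb away (22 observed counts, ratio 2.09, 1.31 to 3.16). The adjoining bin at 71890001, which holds no Tcf12 TSS, had 11 interactions, also all upstream. Its median ratio was 3.947 against 3.785 for the internal promoter bin, and 5 against 2 pairs had a ratio of at least 4. Upstream contacts were thus not particular to the bin with the internal TSS. Of the 46 partner bins 29 lay in the body of Tcf12 itself, against 49 of 121 for Tcf4. By observed count the leading contacts were 338 counts at 10 kb (ratio 2.43), 262 at 25 kb (ratio 4.06) and 202 at 15 kb (ratio 2.08), all upstream in intergenic sequence. By ratio the first was a contact of the internal promoter with an intergenic bin at 510 kb, on only 16 counts (ratio 7.47, 4.27 to 12.1). The second, shown above, joined the 5′ promoter to an intronic bin at 160 kb on 62 counts (ratio 5.74, 4.40 to 7.36). The third joined the internal promoter to an exon bin of Zfp280d at 445 kb on 14 counts (ratio 5.53, 3.02 to 9.28). The 2 intervals that rest on 16 and 14 counts are wide and overlap that of the intronic contact. Zfp280d, a zinc finger gene that is the nearest upstream neighbour, shared 3 partner bins with Tcf12, which is 6.52% of the Tcf12 bins and 23.1% of those of Zfp280d.

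Tcf3, which encodes the E2A proteins E12 and E47, had 13 interactions in 7 clusters from a single promoter bin on chromosome 10 with 10 transcript starts. Unlike Tcf4 and Id2 it lies in a dense region, with 57 other protein-coding genes within 500 kb. Of the 13, 11 lay upstream and 2 downstream, and 12 of the partner bins lay in or at other protein-coding genes. The leading partners by count were a bin in Atp8b3 at 100 kb (80 counts, ratio 3.73, 2.96 to 4.65), an intergenic bin 55 kb downstream (70 counts, ratio 2.35) and a bin in Rexo1 at 120 kb (69 counts, ratio 3.61, 2.81 to 4.57). The highest ratio, 3.85 (2.24 to 6.17), was for a bin of Atcay at 785 kb with 17 counts, and the intervals of these 3 highest ratios overlapped. In 3 contacts the partner bin held a TSS of another gene. These were Atp8b3 at 105 kb (44 counts, ratio 2.21), the shared bin of Izumo4 and Mob3a at 270 kb (54 counts, ratio 2.07) and Lmnb2, a lamin gene, at 475 kb (14 counts, ratio 2.39). Of its 13 partner bins, Tcf3 shared 6 with 2310011J03Rik (of 50) and 5 each with Mbd3 (of 20), a subunit of the NuRD chromatin remodelling complex, and Plekhj1 (of 60). Of the 584 listed pairs in the 935-kb span of its contacts, 13 involved the Tcf3 promoter.

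Id2 was the member with the highest ratios. It lies on the minus strand of chromosome 12 from 25093799 to 25097140, and its 3 transcripts start in 1 bin, at 25095001. This bin had 120 interactions in 5 clusters and ranked 24th of 23780 promoter bins. All 120 lay upstream, the farthest at 975 kb. Of the 3230 genes with at least 20 interactions, 4.37% had all partners on 1 side. Among the 64 genes with at least 100 interactions there were 4 such genes, Id2, Bcl6, Plk2 and Gm37419, the last 3 named after their values were seen. The median ratio of the Id2 pairs was 4.99 against 3.11 over all listed pairs, 83 of the 120 had a ratio of at least 4, and 7 reached 10.

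The partners of Id2 filled an upstream region that holds no other protein-coding TSS. The next protein-coding TSS upstream is that of Rnf144a at 1318 kb, beyond the 975 kb reached, and the next downstream is that of Kidins220 at 121 kb. Between 200 and 300 kb upstream, all 20 bins were listed partners, with observed counts from 17 to 127 and a median of 70.5. Between 300 and 450 kb 29 of 30 were partners, between 450 and 700 kb 27 of 50, and between 700 and 1000 kb 13 of 60. The longest unbroken runs were 26 bins (130 kb), 24 bins (120 kb) and 21 bins (105 kb). Long noncoding genes lie in the region, and Gm36723 held 34 of the partner bins and Gm36287 held 12. The plot of observed and expected counts shows the distance from the expected curve along the region.

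**Figure D3:**
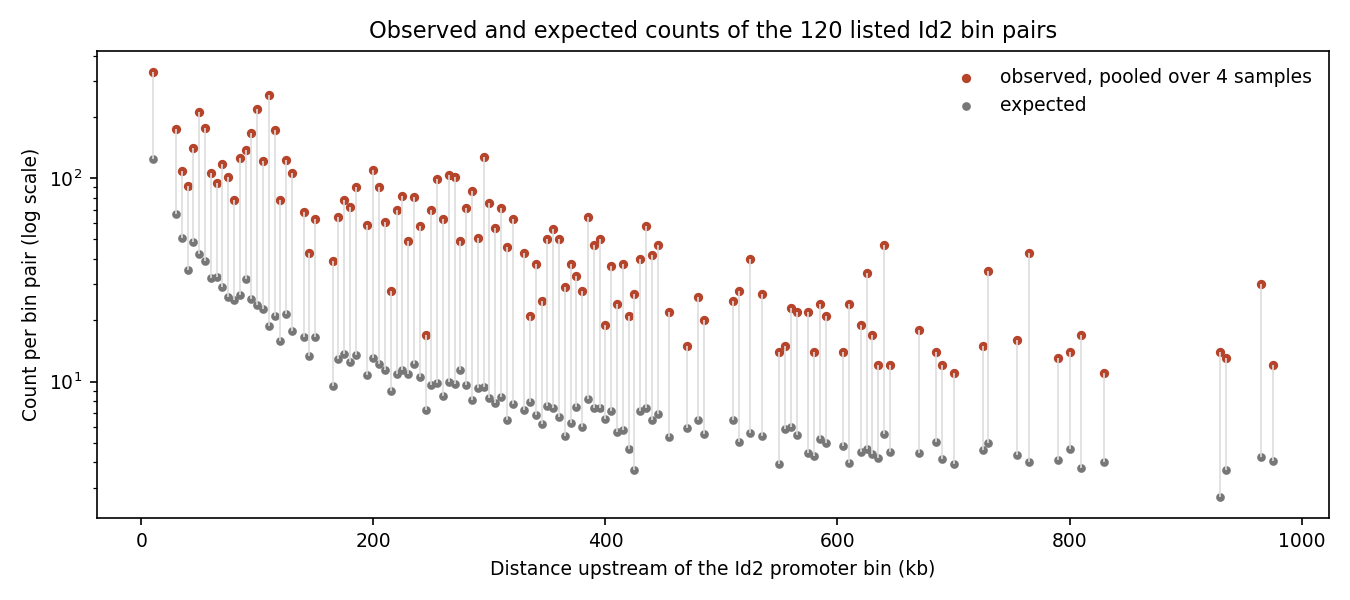
Observed (red) and expected (grey) counts on a log scale for the 120 listed Id2 bin pairs, by distance upstream of the promoter bin in kb. Observed counts exceed expected ones by the greatest factor at 110 kb (255 against 18.7) and 295 kb (127 against 9.41).

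The Id2 contact with the highest ratio joined the promoter to a bin at 110 kb in Gm36287, with 255 observed against 18.7 expected counts (ratio 13.6, 12.01 to 15.4). The next joined it to a bin at 295 kb in Gm36723, with 127 against 9.41 counts (ratio 13.5, 11.3 to 16.1), and these 2 did not differ beyond their intervals. The third lay at 765 kb with 43 against 4.01 counts (ratio 10.7, 7.76 to 14.4). By observed count, the first was at 10 kb with 332 (ratio 2.69, 2.40 to 2.99), below the ratios at 110 and 295 kb by more than its interval, and the third, after the bin at 110 kb, was at 100 kb with 218 (ratio 9.17, 7.99 to 10.5). Compared by distance class, Id2 pairs had a median ratio of 7.21 at 200 to 300 kb against 3.26 for all listed pairs. At 10 to 50 kb the medians were 2.64 for Id2 and 2.42 for all pairs, and beyond 500 kb they were 3.88 and 4.30. Tcf4 and Tcf12 pairs at 200 to 300 kb had medians of 3.13 and 3.04.

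**Figure D4:**
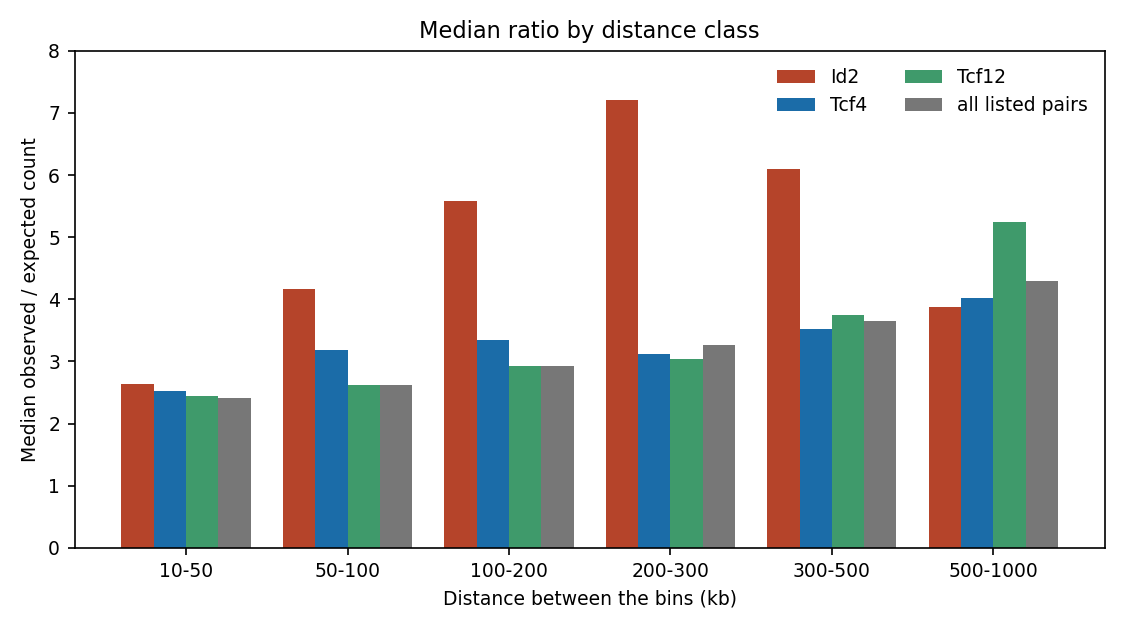
Median ratio of observed to expected count (vertical axis) by distance between the bins in kb (horizontal axis) for the listed pairs of Id2, Tcf4 and Tcf12 and for all listed pairs. Id2 stands at 7.21 in the 200 to 300 kb class, where all listed pairs stand at 3.26, and is close to them in the nearest and farthest classes. The Tcf12 bar beyond 500 kb rests on 3 pairs.

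The bins beside the Id2 promoter bin had the same 1-sided contacts. The downstream flank at 25090001, which holds no Id2 TSS, had 111 listed interactions, and the upstream flank at 25100001 had 38, all of them upstream. The promoter bin and the downstream flank had 85 partner bins in common, 70.8% of the promoter's set and 76.6% of the flank's, and the promoter had the higher count at 66 of the 85. The highest ratio of the flank was 16.04, on 36 observed against 2.24 expected counts. Across the promoter bin, 119 listed pairs joined its 2 sides, and 111 of these were the pairs of the downstream flank, leaving 8 others. None of the upstream partners was listed in contact with another partner. Contacts were called only from bins with the H3K4me3 mark, so 2 unmarked partners could not be listed as a pair. Of the 161 listed pairs within the 980-kb span, 120 involved the Id2 promoter bin. That span starts at the promoter bin and leaves out the 111 pairs of the downstream flank. Klf11, which encodes a Krüppel-like factor, shared 2 partner bins with Id2, 1.67% of the Id2 bins and 22.2% of those of Klf11.

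Id1 had 16 interactions from its promoter bin on chromosome 2, 9 upstream and 7 downstream, with ratios of at most 3.93. The adjoining bin at 152740001, which holds no Id1 TSS, had 10 listed interactions with ratios up to 5.39. By count, the strongest contact of the Id1 promoter bin was with the TSS bin of Bcl2l1, the gene of the survival protein BCL-XL. It lay 95 kb downstream, with 231 observed against 60.1 expected counts (ratio 3.84, 3.36 to 4.37). The next counts were 145 in H13 at 30 kb (ratio 2.34) and 138 in an intergenic bin at 20 kb (ratio 2.11), both upstream and both below the Bcl2l1 contact in ratio by more than their intervals. A bin at 565 kb had the highest ratio, 3.93 (2.15 to 6.60), on 14 counts, which overlaps that of Bcl2l1. A bin in Ttll9 at 230 kb followed with 20 counts (ratio 3.52). The TSS bins of Mcts2 (86 counts at 50 kb, ratio 2.06) and Mylk2 (27 counts at 175 kb, ratio 2.05) were the other promoter partners. H13, which encodes signal peptide peptidase, held 5 of the 16 partner bins. Tpx2, a spindle assembly gene, shared 4 partner bins with Id1, 4 of the 16 Id1 bins and 4 of its own 10.

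Id3 had 12 interactions from its promoter bin on chromosome 4, 11 upstream and 1 downstream. The leading counts were 203 at 15 kb (ratio 2.87, 2.49 to 3.29), 190 at 25 kb (ratio 3.09, 2.66 to 3.56) and 131 at 70 kb (ratio 4.47, 3.74 to 5.31), all upstream in intergenic bins. The bin at 70 kb, shown above, stood above both nearer ones in ratio by more than the intervals. A bin at 735 kb had about the same ratio on 14 counts (4.48, 2.45 to 7.52), and a bin in an Rpl11 intron at 115 kb had 63 counts (ratio 3.81, 2.93 to 4.87). Of its 12 partner bins, Id3 shared 4 with Rpl11 (of 19), a ribosomal protein gene, and 3 with Srsf10 (of 38), a splicing factor gene.

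Sequence features of the partner bins were set beside those of bins mirrored to the other side of the same promoter. Id2 partners had 13.6 E-boxes per bin, mirrored bins 14.1 and all listed bins 13.4. Tcf4 partners had 11.4 against 11.3 in mirrored bins, and Tcf12 partners 11.5 against 13.8. The PU.1 consensus, named for a lineage factor of macrophages, was found 0.433 times per bin in Id2 partners, 0.375 in mirrored bins and 0.336 in all listed bins. AP-1 matches numbered 1.98 per bin in Id2 partners, 1.53 in mirrored bins and 1.58 in all listed bins. For Id3 the PU.1 means were 0.833 in partners and 0.333 in mirrored bins, over 12 bins each. Id1 went the other way, with 0.3125 in partners and 0.4375 in mirrored bins. The PU.1 means were 0.355 and 0.340 for Tcf4, 0.326 and 0.319 for Tcf12, and 0.385 and 0.308 for Tcf3. For Tcf3 the AP-1 means were 0.769 and 1.85, over 13 bins each. No spread over samples exists for these means, and neighbouring bins are not independent. A CTCF consensus match was present in 3 of the 120 Id2 partner bins, all on the plus strand, and in 2 of the 121 Tcf4 partner bins, both on the minus strand. These are 2.50% and 1.65% of the bins, against 4.31% of all listed bins. Tcf3, Tcf12 and Id1 had 2 such partner bins each and Id3 had none. For Tcf3 these were 15.4% of 13 bins, for Tcf12 4.35% of 46 and for Id1 12.5% of 16, all above the share of all listed bins. The promoter bins with a contact held none.

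To place the family beside genes it works with, 4 lists were counted in the same way. Of 21 helix-loop-helix partners and antagonists, 11 were listed, with a median of 1 interaction. Over all genes 63.2% were listed and the median was 2. Lyl1 with 27 and Tal1 with 11, both basic helix-loop-helix partners of E-proteins in blood cells, led this list, and Id4, the fourth Id gene, was among the 10 with none. E-protein cofactors were listed for 10 of 11 genes with a median of 24. They were led by Lmo2, a LIM-domain adaptor, with 47 and Crebbp, an acetyltransferase, with 36, and Ldb2 had none. Of 16 BMP and Smad genes 12 were listed, with a median of 5, led by the signal transducer Smad1 with 108 and the ubiquitin ligase Smurf1 with 32. Of 20 E-protein target genes of lymphoid and dendritic cells 14 were listed, with a median of 1.5, led by Il7r with 18 and Irf8 with 16, and 6 had none. Cd79a, Ebf1, Pax5, Rag1, Rag2 and Siglech were those 6. With TSSs within 2500 bp of the bin, 19 of the 20 were listed, against 14569 of all 20696 genes. The list median was then 4, which was also the median of all genes, and of the 6 only Siglech still had none.

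**Figure D5:**
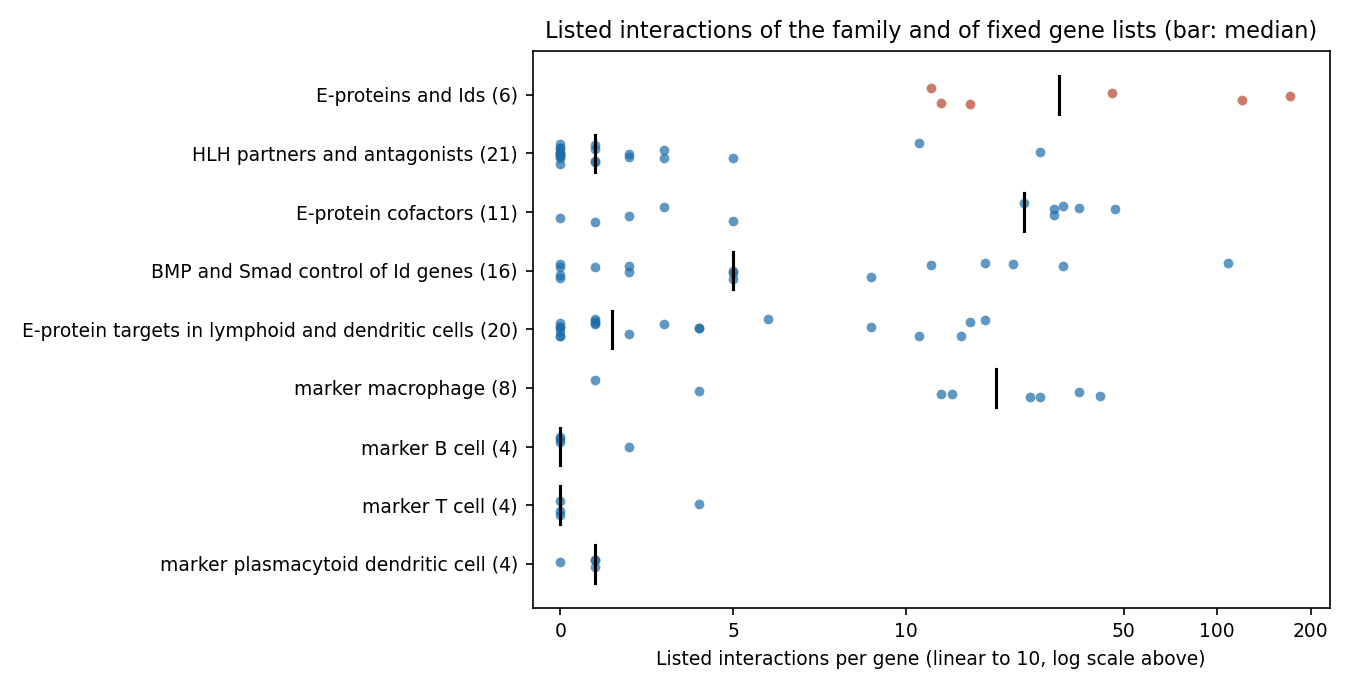
Listed interactions per gene (horizontal axis, linear to 10 and logarithmic above) for the 6 family members (red), the 4 pathway lists and the 4 cell type marker lists (blue), with 1 point per gene, a black bar at each median and the number of genes in parentheses. Tcf4 and Id2 lie to the right of all genes in the lists, and B cell, T cell and plasmacytoid dendritic cell markers have at most 4 interactions, a limit that holds for a TSS inside the bin and not for one within 2500 bp of it.

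The cell label was checked on the same scale. All 8 macrophage markers were listed, with a median of 19.5 and up to 42 for Mertk, and Spi1, which encodes PU.1, had 36. Of all genes 63.2% were listed. B cell markers were listed for 1 of 4 genes and T cell markers for 1 of 4 (Cd4 with 4). Plasmacytoid dendritic cell markers were listed for 3 of 4 genes with 1 interaction each, and Siglech had none. With TSSs within 2500 bp of the bin, these counts became 4 of 4 for B cells, 3 of 4 for T cells, with 30 interactions for Gata3, and 3 of 4 for plasmacytoid dendritic cells, against 14569 of all 20696 genes. The macrophage median was then 36.5, and those of the B cell, T cell and plasmacytoid dendritic cell markers 4, 3 and 2. Tcf4, the E-protein gene required for plasmacytoid dendritic cells, had 189 interactions on this wider definition. With a TSS inside the bin it had 172, over 8 promoter bins.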

How the data were processed

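H3K4me3 HiChIP libraries of IL-4-treated and basal C57BL/6J BMDMs were grouped by their titles. Bowtie2, bedtools and the mm10 build are named in the submitters' processing notes. By the study's methods the authors called contacts with MAPS at 5000-bp bins on the merged reads, anchored at H3K4me3 peaks, so a bin without the mark is listed only as the partner of a marked one. The deposited list gives an observed count and an expected count per bin pair, and neither was changed. The authors also gave each pair a false discovery rate (an adjusted p-value), at or below 0.01 throughout, and every listed ratio was at least 2. The authors' −log10 p per cluster was not used. The observed counts sum to 12385062 over listed pairs, which is not a depth.

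TSSs, exons and long noncoding genes came from the basic set of GENCODE M21. Distances are between bin starts, and upstream follows the gene's strand. Partner bins were called by protein-coding genes. Motifs were counted on both strands of GRCm38, whose coordinates are those of mm10, in bins with at least 4500 known bases, and a mirrored bin was as far from the promoter bin on its other side. A CAGNTG match also covers CANCTG, its reverse complement. The members, gene lists and motifs were chosen with earlier results of these data known. Named by rule were the members, the 3 partners per member with the highest ratio and count, other genes' TSS bins in contact, up to 3 genes sharing at least 2 partner bins with a member, holders of at least 5 partner bins, and the 2 leaders of each list. A few results that this rule selects are not reported here. No hypothesis test was made. The counting script was tested on simulated data and recovered every planted contact. Alternatives changed the false discovery rate, count or ratio minimum, promoter definition, distance and unit counted. Python 3.11.15, pandas 2.3.3, scipy 1.17.1, pysam 0.24.0, samtools 1.23.1 and matplotlib 3.10.9 were used.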

Additional observations from a re-analysis of the deposited data

How the results depend on the processing

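The family total of 379 interactions was 222 at a false discovery rate under 1e-06, 155 at a ratio of at least 4, 70 when clusters were counted, 608 with TSSs within 5000 bp of the bin, 238 with the outermost TSS of each gene, 223 over 200 kb and 156 up to 200 kb. At a ratio of at least 4, Tcf3 and Id1 had 0 interactions and 4 of 6 members remained listed. Of all 20696 protein-coding genes, 8757 were listed at that cut. Counted as clusters, Id2 fell to 5 and Tcf4 to 33, and with the outermost TSS Tcf4 had 36, below the 41 of Tcf12. With TSSs within 2500 bp Id2 had 231, above the 189 of Tcf4, and the median of the E-protein target list was 4 in place of 1.5. The leading bin's share of Tcf4 interactions, 55.8%, was 76.7% with neighbouring promoter bins joined and 69.4% by observed counts. The difference in E-boxes per bin between Tcf4 partner and mirrored bins changed sign, 0.08 against -0.05 without mirrored bins that were partners. These changes follow from what each alternative counts. No paired analysis was possible because the samples were merged into 1 list before deposit, which also bars leaving out a replicate. Contacts on few counts have wide intervals.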
